A study of Mus musculus with 5 samples.

Results

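The transcripts described here encode glycolytic enzymes in mouse embryonic stem cells (mESCs), a cultured cell type that comes from the early embryo, divides without limit and can form every tissue. The genes were 10, chosen by name: Hk2, Gpi1, Pfkl, Pfkp, Aldoa, Tpi1, Gapdh, Pgk1, Pkm and Ldha. They had 51 protein-coding transcripts among the 135276 transcripts of the deposited table, and all 51 passed the filter on low counts, which asks for 1 CPM or more in any of the libraries. CPM is the number of reads on a transcript after scaling by library size. Each gene is represented by its main transcript, the protein-coding one with the highest mean CPM over the 5 libraries.

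Ribosome-protected fragments were sequenced from undifferentiated mESCs in 3 libraries by standard RIBO-seq and 2 by AHARIBO RIBO-seq. The mESCs were maintained on gelatin in medium with serum and LIF. In both groups, cycloheximide was given to stop elongation, and RNase I (1.3 U, 45 min) removed the RNA that ribosomes did not cover. For standard RIBO-seq, ribosomes were pelleted through 30% sucrose. For AHARIBO RIBO-seq, nascent peptides holding azidohomoalanine (AHA), a methionine analogue, were joined to biotin through 50 µM of a DBCO reagent and pulled down on magnetic beads. The labels name no strain or line and call every sample untreated, and the mESC line is named only in the paper's methods. In the paper's other experiments, AHA was given after a period in methionine-free medium, which it names as the main limitation of the method. The methods restate neither the AHA dose nor the methionine-free period for these libraries. The comparison asks whether capture through the nascent peptide returns the same footprints as a cushion.

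Glycolysis splits glucose into pyruvate in a fixed series of steps. Hexokinase (Hk2) traps glucose, Gpi1 isomerises the product, phosphofructokinase (Pfkl and Pfkp, the liver and platelet forms) makes the committed step and Aldoa cleaves the hexose. Tpi1 interconverts the resulting trioses, Gapdh oxidises one of them, Pgk1 makes ATP, Pkm makes pyruvate and ATP, and Ldha turns pyruvate into lactate. Pluripotent stem cells are known for a high glycolytic rate. Several of these genes, Gapdh above all, are also known for having many processed pseudogenes, copies of the spliced mRNA inserted elsewhere in the genome, so that a short footprint may match both a gene and its copies.

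After removal of duplicates, the libraries held 6403651 to 11150527 reads, and 3 reads corresponded to 0.262 to 0.476 CPM. The 8 pluripotency markers examined, Pou5f1, Sox2 and Nanog among them, summed to between 1265 and 1361 CPM in standard and between 1158 and 1267 CPM in AHARIBO RIBO-seq. The 6 fibroblast feeder markers summed to at most 5.15 CPM, the 5 endoderm markers to at most 4.28, the 3 mesoderm markers to at most 1.11 and the 4 neural markers to between 43.9 and 51.7 CPM. Of the 6 feeder markers, 2 passed the filter, Thy1 at 2.93 and Col1a1 at 1.11 CPM over the 5 libraries. Dcn was at 0 in every library. Klf4 (log2 fold change -0.34, adjusted p = 0.0084) and Sox2 (-0.32, adjusted p = 0.013) were lower in AHARIBO RIBO-seq in edgeR's test. Neither was called without standard replicate 1 (adjusted p = 0.081 and 0.084) or without AHARIBO replicate 1 (0.13 and 0.40), and DESeq2 called Klf4 (0.048) but not Sox2 (0.051). Whether these markers have a part in the values below was not tested.

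The first 30 nt of the coding sequence are shown for 4 enzymes because they differ in both sequence features described for the enzymes, the methionine codons at which AHA can enter and the number of transcripts that hold a footprint's sequence. The part of either feature in the levels was not tested. In-frame ATG codons are in capitals, sequences run 5′ to 3′ as in the Gencode M21 transcripts, and coordinates are those of GRCm38.
Hk2: ATGatcgcctcgcatATGatcgcctgctta
Aldoa: ATGccccacccatacccagcactgaccccg
Pgk1: ATGtcgctttccaacaagctgactttggac
Gapdh: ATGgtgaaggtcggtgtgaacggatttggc
The Hk2 window lay in exon 1 on the minus strand, at chr6:82773951-82773980. The Aldoa window lay in exon 2 on the minus strand, at chr7:126797726-126797755. The Pgk1 window lay in exon 1 on the plus strand, at chrX:106187251-106187280. The Gapdh window spans the junction of exons 2 and 3 on the minus strand, between chr6:125163430 and chr6:125165293. In these 4 windows, Hk2 alone has a second in-frame ATG. Counted over both strands of all transcripts in the table, the Hk2 window occurred at 1 place, the Pgk1 window at 3 places in 2 genes, the Aldoa window at 11 places in 1 gene, and the Gapdh window at 56 places in 49 genes.

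No glycolytic enzyme passed the test of a difference between the methods after adjustment. Pkm, the most abundant of them, gave 478 ± 32.6 CPM in standard (SD, n = 3) and 417 ± 45.0 CPM in AHARIBO RIBO-seq (SD, n = 2), and Pgk1 gave 141 ± 4.07 and 144 ± 7.54 CPM. In edgeR's quasi-likelihood test with Benjamini-Hochberg adjustment over the 66972 transcripts tested, 0 of the 10 main transcripts had an adjusted p under 0.05, and 4 had an unadjusted p under 0.05. In the whole table, 4.51% of the transcripts tested were called, and 18.7% had an unadjusted p under 0.05. Among the main transcripts of protein-coding genes, 5.12% were called and 50.6% had a log2 fold change below 0. DESeq2 called 0 of the 10 as well, with 2.05% called among the transcripts to which it gave an adjusted p. The log2 fold change of AHARIBO over standard RIBO-seq was below 0 for 9 of the 10 enzymes, against 49.7% of all transcripts tested. Its median was -0.096 over the enzymes and 0.0022 over all transcripts. With duplicate reads kept, 7 of the 10 lay below 0, with a median of -0.025. Without AHARIBO replicate 1 the count was again 7 of 10 (median -0.055), and without AHARIBO replicate 2 it was 10 of 10 (median -0.19). The labels call the replicates biological without saying whether each was a separate culture, so the p-values measure the spread between these libraries. In a bulk lysate, fewer cells and fewer footprints per cell cannot be told apart.

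**Figure D1:**
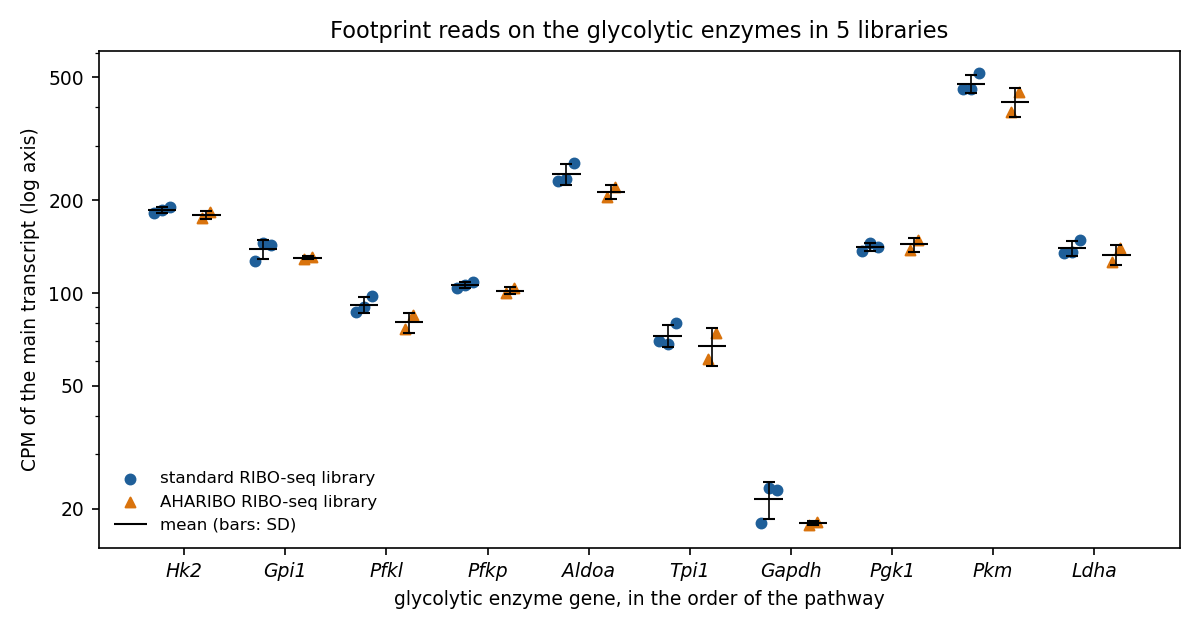
CPM of the main transcript of each enzyme (log axis), with 1 point per library, circles for the 3 standard and triangles for the 2 AHARIBO RIBO-seq libraries, and lines and bars for mean and SD. Pkm is highest at 385 to 515 CPM and Gapdh lowest at 17.8 to 23.3 CPM, and within each gene the methods lie close together.

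At the entry to the pathway, Hk2 (ENSMUST00000000642.10) had 181, 186 and 190.4 CPM in standard and 176 and 183 CPM in AHARIBO RIBO-seq, replicates in order. The groups overlapped, with a log2 fold change of -0.05 ± 0.08 (approximate SE) and an adjusted p of 0.78 in edgeR's test. Gpi1 (ENSMUST00000038027.5) had 127, 145 and 143 CPM in standard against 129 and 131 CPM. These groups overlapped too, because standard replicate 1 lay below both AHARIBO libraries, and the log2 fold change was -0.09 ± 0.08 (adjusted p = 0.60, edgeR). With duplicate reads kept, that of Gpi1 was -0.0028 (adjusted p = 0.99, edgeR).

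The liver-type phosphofructokinase Pfkl (ENSMUST00000020522.8) gave 86.9, 90.2 and 97.7 CPM in standard and 76.2 and 84.7 CPM in AHARIBO RIBO-seq. Both AHARIBO libraries lay below all standard ones, with a log2 fold change of -0.19 ± 0.08 and an adjusted p of 0.19 (edgeR). Without AHARIBO replicate 1, the log2 fold change of Pfkl was -0.11 (adjusted p = 0.77, edgeR). The platelet-type Pfkp (ENSMUST00000138703.7) gave 104, 106 and 108 CPM against 99.8 and 103.7 CPM, again without overlap but with a log2 fold change of -0.06 ± 0.08 (adjusted p = 0.73, edgeR). Aldoa (ENSMUST00000032934.11) gave 231, 233 and 264 CPM against 204 and 220.1 CPM. Its groups did not overlap either, and the log2 fold change was -0.19 ± 0.08 (adjusted p = 0.16, edgeR). With duplicate reads kept, the log2 fold change of Aldoa was -0.056 (adjusted p = 0.70, edgeR).

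Tpi1 (ENSMUST00000172132.8) gave 70.1, 68.4 and 79.8 CPM in standard and 60.9 and 74.1 CPM in AHARIBO RIBO-seq, which placed the standard values between those of the AHARIBO libraries or above them. The log2 fold change of Tpi1 was -0.11 ± 0.09 (adjusted p = 0.55, edgeR). Gapdh (ENSMUST00000118875.7) gave 18.0, 23.3 and 23.0 CPM against 17.8 and 18.2 CPM. Standard replicate 1 lay inside the AHARIBO range, and the log2 fold change of -0.25 ± 0.11, the most negative of the 10, had an adjusted p of 0.21 in edgeR's test. It rested on 145 to 211 reads per library, the fewest of any of these enzymes. Pgk1 (ENSMUST00000081593.12) gave 137, 145 and 141 CPM against 138 and 149 CPM, and was the enzyme whose log2 fold change lay above 0 (0.03 ± 0.08, adjusted p = 0.89, edgeR). With duplicate reads kept, that of Pgk1 was 0.23 (adjusted p = 0.12, edgeR), the lowest adjusted p of the 10 under that setting.

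At the end of the pathway, Pkm (ENSMUST00000034834.15) gave 458, 459 and 515 CPM in standard and 385 and 449 CPM in AHARIBO RIBO-seq. The groups did not overlap, and the log2 fold change was -0.20 ± 0.08 with an adjusted p of 0.15 (edgeR), the lowest of the 10. Leaving out AHARIBO replicate 2, which was the higher of the pair, brought it to -0.31 with an adjusted p of 0.026 (edgeR), where the remaining AHARIBO library is assumed to vary like the standard ones. Without AHARIBO replicate 1 it was -0.089, and with duplicate reads kept it was -0.042 (adjusted p = 0.76, edgeR). Ldha (ENSMUST00000048209.15) gave 135, 135 and 149 CPM against 126 and 139.8 CPM, with overlap and a log2 fold change of -0.07 ± 0.08 (adjusted p = 0.70, edgeR). In total, 4 enzymes (Pfkl, Pfkp, Aldoa and Pkm) had both AHARIBO libraries below all standard libraries, an arrangement found in 16.5% of all transcripts tested.

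**Figure D2:**
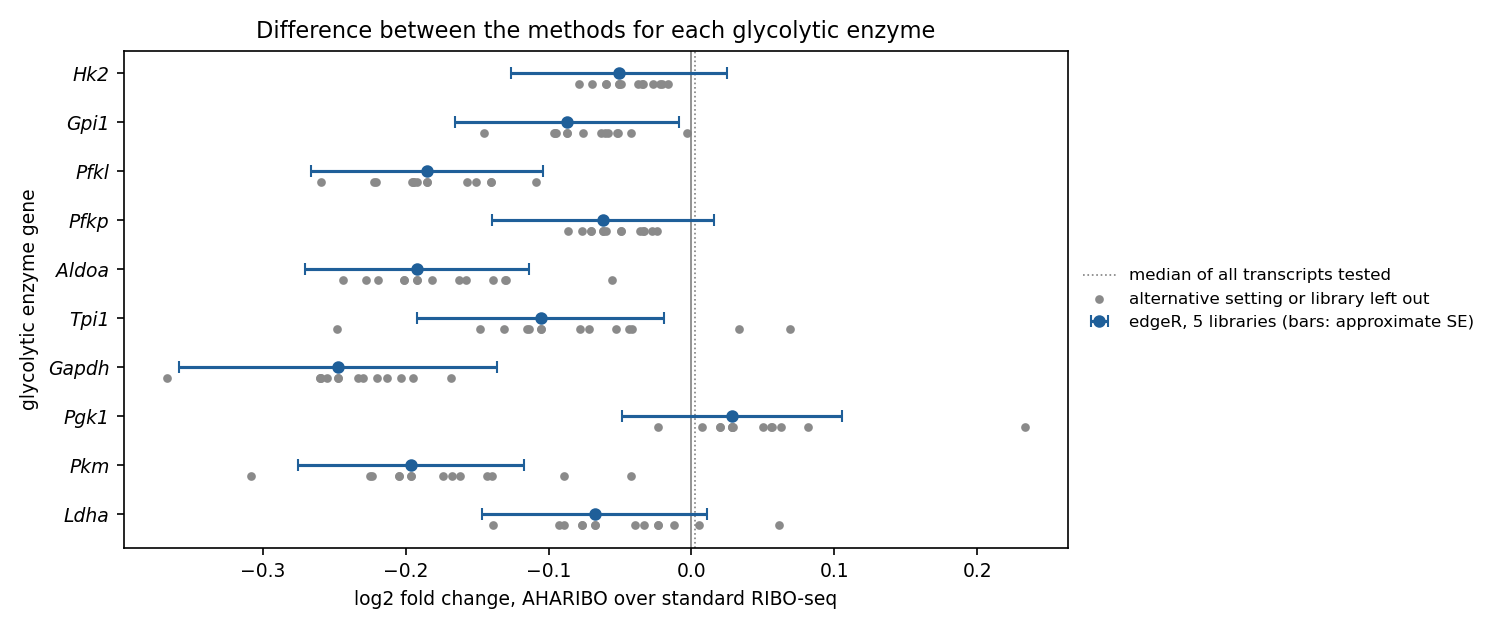
Log2 fold change of AHARIBO over standard RIBO-seq for each enzyme, as fitted by edgeR over 5 libraries (blue, bars are approximate SE) and under each alternative setting or with a library left out (grey). Tpi1, Pgk1 and Ldha have grey points on both sides of 0, and no blue point lies below -0.25 or above 0.03.

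Added together, the main transcripts of the 10 enzymes took 0.154%, 0.158% and 0.168% of the reads in standard and 0.145% and 0.156% in AHARIBO RIBO-seq. The 95% Wilson intervals were no wider than 0.165% to 0.172% in any library and cover counting error only, not the spread between libraries. The means were 0.160% ± 0.0075 and 0.150% ± 0.0078, and an exact permutation test over the libraries, two-sided, gave p = 0.4, where 10 splits allow no p below 0.1. The difference of -0.0098 percentage points became -0.0043 without AHARIBO replicate 1, -0.015 without AHARIBO replicate 2, -0.0056 without standard replicate 3 and -0.0041 with duplicate reads kept. The differences between libraries of one method were thus as large as the difference between the methods.

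Per kilobase of transcript, the levels of the enzymes spread over more than a factor of 10. In standard RIBO-seq, Pkm stood at 196 ± 13.4 CPM per kb (SD, n = 3) and Aldoa at 161 ± 12.2, followed by Ldha at 87.9 ± 4.93 and Pgk1 at 77.1 ± 2.23. Gpi1 at 48.0 ± 3.35 and Tpi1 at 45.3 ± 3.81 overlapped over the libraries. Hk2 at 33.7 ± 0.84 came next, then Pfkp at 25.6 ± 0.50 and Pfkl at 24.6 ± 1.48, which overlapped, and Gapdh at 15.1 ± 2.08 CPM per kb came last. The neighbours not named as overlapping were separated over the libraries.

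In AHARIBO RIBO-seq the order was the same, from 171 ± 18.5 CPM per kb for Pkm (SD, n = 2) to 12.7 ± 0.21 for Gapdh. There, Ldha and Pgk1 overlapped, as did Gpi1 and Tpi1, while Pfkp and Pfkl were apart. Among 12372 main transcripts of protein-coding genes tested, Pkm stood at the 99.2 percentile of standard RIBO-seq, Aldoa at 98.9, Ldha at 98.0 and Pgk1 at 97.7, whereas Gapdh, often used as an abundant reference gene, stood at 83.9. Levels per kb of coding sequence gave the same order. With duplicate reads kept, Gapdh rose to rank 7 in standard RIBO-seq, at 26.6 ± 6.09 CPM per kb (SD). Hk2 at rank 8 had 25.9 ± 0.85, a gap within the SD of Gapdh. In AHARIBO RIBO-seq, Gapdh rose to rank 8, at 22.4 CPM per kb. Duplicates made up 64.5% to 72.5% of the Gapdh reads and 57.4% to 68.4% of the Pkm reads, against 22.7% to 30.8% for Pfkp and 43.3% to 47.7% in whole libraries.

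Each transcript was divided into overlapping windows of 30 nt, the length of a typical footprint, and each window was looked up on both strands of every transcript in the table. All 973 windows of the Gapdh coding sequence occurred at more than 10 places, with a median of 73 and a highest value of 146. STAR at its default settings, which the methods state, discards reads that align to more than 10 places. Coding sequences with every window past that number were found in 27 of 12364 protein-coding genes tested (0.218%). The same held for 55.2% of the coding windows of Ldha, 45.9% of those of Aldoa and 8.62% of those of Pkm. The other 6 enzymes had no coding window of this kind, like 88.1% of the protein-coding genes tested. The part of discarded reads in the levels was not tested, since alignments were not analysed here.

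**Figure D3:**
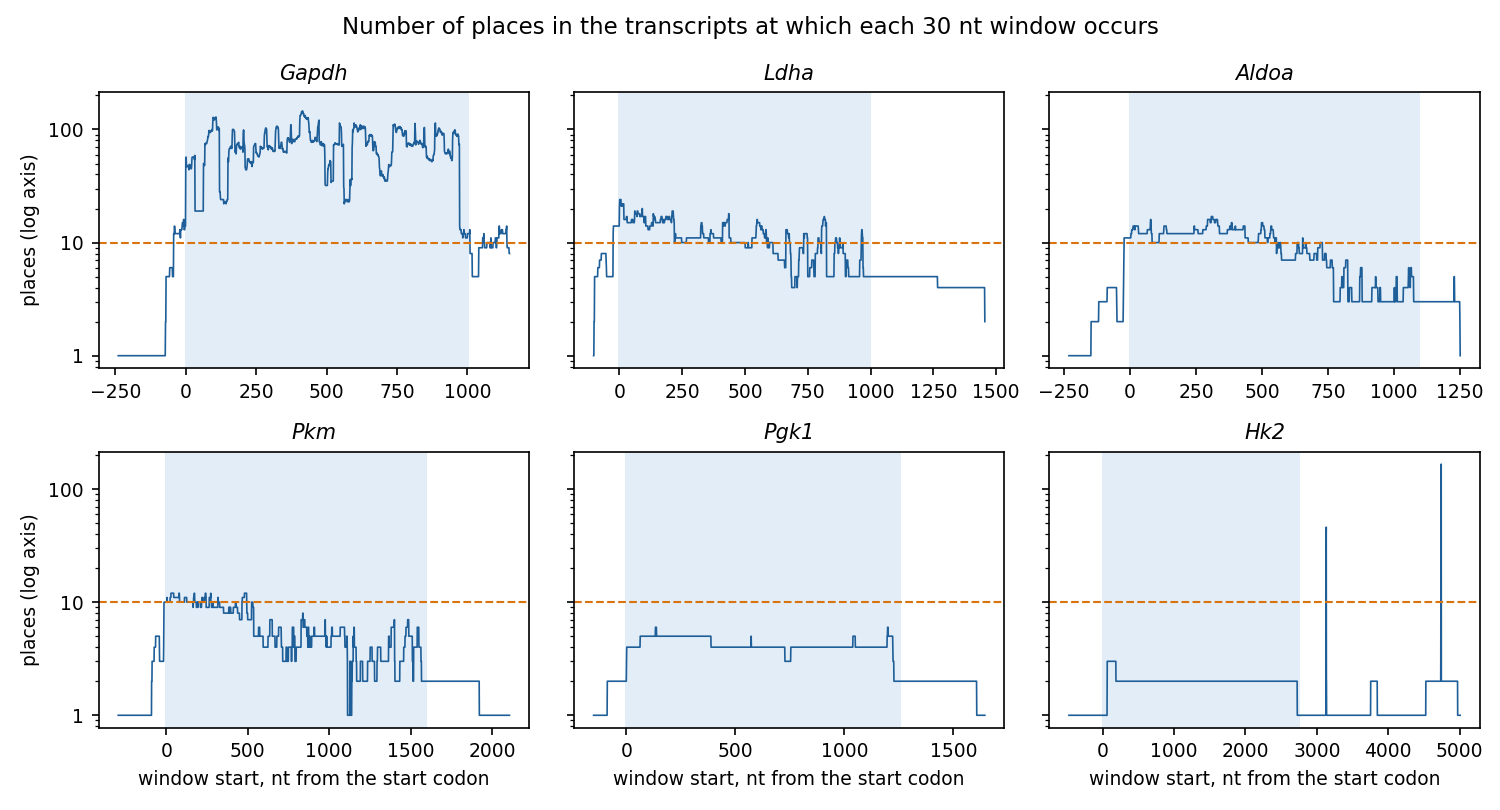
Number of places in the transcripts of the table at which each 30 nt window of 6 main transcripts occurs (log axis), by distance of the window's start from the start codon. Shading marks the coding sequence and the dashed line marks 10 places. Gapdh lies above the line through the whole shaded region, Ldha and Aldoa in its first part, and Pgk1 nowhere.

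The main Gapdh transcript, Gapdh-203 at chr6:125161854-125165773, had 294 windows at no more than 10 places, of which 197 began before the start codon and 97 reached past the stop codon. The 3 Gapdh transcripts with 171 to 289 such windows ahead of the start codon (Gapdh-203, Gapdh-207 and Gapdh-209) had 16.1 to 20.1 CPM over the 5 libraries. The 3 with 14 to 74 of them (Gapdh-201, Gapdh-202 and Gapdh-212) had 0.855 to 1.48 CPM. Counted over the whole transcript, however, Gapdh-201 and Gapdh-202 had 171 and 172 such windows and Gapdh-207 had 171, so the CPM did not follow their total number. Gapdh-201, the full-length form with the shorter leader, had 7, 7 and 5 reads in standard and 14 and 7 reads in AHARIBO RIBO-seq, identical in every library to those of Gapdh-202. In Gapdh-203, none of the windows at no more than 10 places lay wholly within the coding sequence.

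When CPM was divided by the number of windows at no more than 10 places, in place of the length, 8 enzymes changed rank in either method. This measure was chosen after the data were seen. In standard RIBO-seq, Aldoa came first with 250.0 ± 19.0 CPM per 1000 such windows, Pkm had 211 ± 14.4 and Ldha 140 ± 7.84. Gapdh stood at 72.9 ± 10.0 in standard and 61.1 ± 0.995 in AHARIBO RIBO-seq, at rank 5. Its rise from the last rank is set by the divisor, since it has the fewest such windows, 294 of 1391. Those of Gapdh all reach into the leader or trailer, whereas the other enzymes have such windows in the coding sequence, so the rank compares unlike regions. Hk2, Pfkl, Pfkp, Tpi1 and Pgk1 kept values within 2% of those per kb, although Pgk1 has many windows in other genes.

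**Figure D4:**
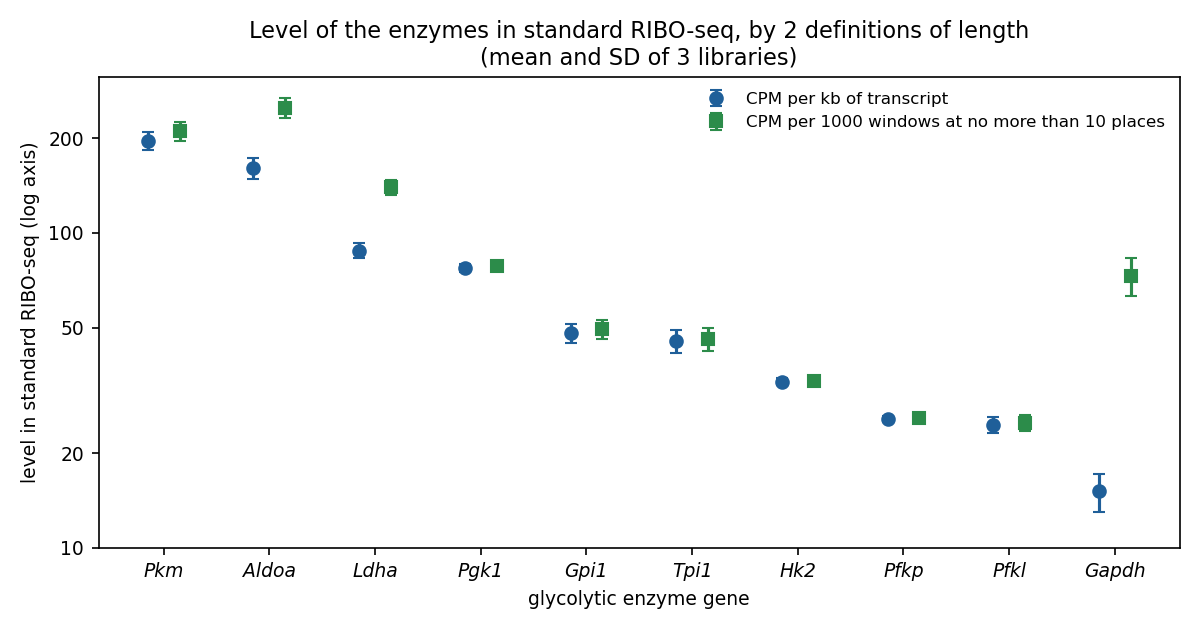
Level of each enzyme in standard RIBO-seq (log axis, mean and SD of 3 libraries), per kb of transcript (circles) and per 1000 windows at no more than 10 places (squares). Gapdh, which has the fewest such windows, differs most between the definitions, at 15.1 and 72.9, followed by Ldha and Aldoa. Hk2, Pfkp, Pfkl, Tpi1 and Pgk1 differ little.

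For Pgk1, whose windows occurred at no more than 6 places, pseudogenes carried nearly as many reads as the gene. Of the windows of Pgk1 (chrX:106187100-106203699), 68.3% occurred on the same strand in a transcript of another gene, and its coding windows occurred at a median of 4 places. The processed pseudogenes Pgk1-rs7 on chromosome 12 and Gm5537 had all of their windows within Pgk1. They had 131.1 and 130.6 CPM over the 5 libraries, where Pgk1 had 142 CPM. Their log2 fold changes were 0.03 for both, as for Pgk1. Reads counted on these copies and on Pgk1 cannot be told apart from the table.

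The same was seen in part for the other enzymes. Gm6560 on chromosome 5 had 59.5% of its windows in Pkm and stood at 62.8% of the CPM of Pkm. Gm1840, with 60.3% of its windows in Gpi1, stood at 55.9% of the CPM of Gpi1. Gm5452 stood at 37.9% of Ldha, Tpi-rs11 at 25.7% of Tpi1 and Gm5276 at 11.6% of Aldoa, with 28.9%, 57.3% and 14.8% of their windows in the enzyme. The share of windows found in another gene was 51.5% for Pkm, 39.8% for Ldha, 36.4% for Aldoa, 33.0% for Gpi1 and 14.3% for Tpi1. It was below 1% for Pfkl, Hk2 and Pfkp. The highest pseudogene sharing any window with Hk2, Gm5389, had 2 of them, and no pseudogene shared one with Pfkp.

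Gapdh shared windows with 336 pseudogene transcripts, more than any other of the enzymes, and had 84.2% of its own windows in another gene. The highest of these, Gm8330, had 4.09 CPM, or 20.4% of the Gapdh value. A pair of copies with every window inside Gapdh, Gm10359 and Gm12671, had 0.116 and 0 CPM, in contrast to the copies of Pgk1. All 336 added up to 369 CPM, in which a shared read may be counted more than one time.

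**Figure D5:**
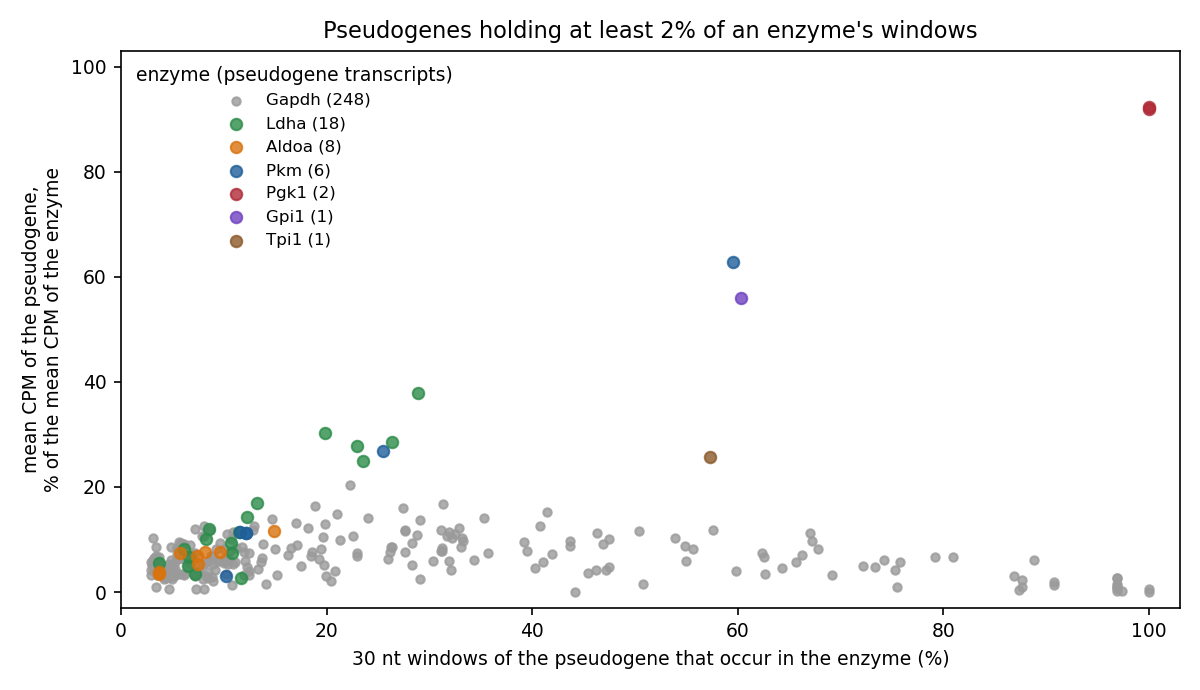
Pseudogene transcripts that hold at least 2% of the windows of an enzyme, by the share of the pseudogene's own windows found in the enzyme and by its mean CPM as a percentage of the enzyme's. The 2 copies of Pgk1 lie at 100% of windows and about 92% of CPM, while those of Gapdh (248 transcripts) remain at or below 20.4% of CPM at any share of windows.

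Between the methods, 7 of the 241 Gapdh-related pseudogene transcripts tested were lower in AHARIBO RIBO-seq in edgeR's test and 0 were higher. Of all transcripts tested, 2.24% were called lower and 2.27% higher. The median log2 fold change of the Gapdh-related transcripts was -0.53, against 0.0022 over all transcripts. They had at most 4.09 CPM over the libraries and may share reads, and the cause was not tested. They belong to Gm3671, Gm8100, Gm11960 (2 transcripts), Gm8825, Gm7545 and Gm3200, with 6 to 39 reads per library. In each, standard replicate 3 had the highest CPM, and without that library 0 of the 7 were called. Without AHARIBO replicate 1, 2 of the 7 were called, without AHARIBO replicate 2, 3 were, and with duplicate reads kept, 1 was. DESeq2 gave an adjusted p to 0 of the 7, and with the replicate number as a block, edgeR called 1. Only 2 of the 7 reached 1 CPM in every library. The count of lower calls thus rests in part on transcripts that passed the filter through the libraries where they were high. Gm6992, with windows in Pkm, was lower as well (log2 fold change -0.29, adjusted p = 0.031, edgeR), and so was Gm15066 (-0.37, adjusted p = 0.033, edgeR), which shares 8 windows with Pfkl. Neither was called without standard replicate 1 (adjusted p = 0.11 and 0.052), without standard replicate 3 (0.12 and 0.13) or without AHARIBO replicate 1 (0.68 and 0.72). DESeq2 (0.12 and 0.21) and edgeR with duplicate reads kept (0.26 and 0.31) called neither.

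Over the 51 transcripts of the 10 genes, log2 fold changes ran from -0.78 to 0.32 and 42 were below 0. The highest value is that of both Gapdh-201 and Gapdh-202, which had identical counts and reached 1 CPM in AHARIBO replicate 1 alone. The lowest, of Gapdh-212, rested on 7 to 19 reads per library. In edgeR's test, 2 were called, both lower in AHARIBO RIBO-seq, beside 2.24% called lower in the whole table. Aldoa-211 fell from 107 ± 9.34 to 87.7 ± 2.25 CPM (log2 fold change -0.28, adjusted p = 0.030), and Pkm-208 fell from 60.1 ± 3.86 to 47.6 ± 6.23 CPM (-0.33, adjusted p = 0.017). Both are annotated with an incomplete coding sequence and may share reads with the main transcript of their gene. Neither was called without standard replicate 1, standard replicate 3 or AHARIBO replicate 1, where the adjusted p ranged from 0.075 to 0.51 (edgeR), nor with duplicate reads kept (0.18 and 0.28), nor by DESeq2 (0.099 and 0.11). Ldha-201 and Ldha-210, of 1766 and 1815 nt, had identical counts in every library, from 869 to 1367 reads. The table also holds Aldoa-214 under a second gene identifier of the same name, at 1.22 ± 0.11 CPM in standard and 0.768 ± 0.52 CPM in AHARIBO RIBO-seq.

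Pkm is spliced to a muscle-type M1 or a proliferation-associated M2 form, which differ by a pair of mutually exclusive exons. Pkm-201, the main transcript, holds the downstream of these exons, with its differing bases within chr9:59675570-59675724, and Pkm-202 holds the upstream one, within chr9:59675031-59675185. The window in which they differ most is shown from each, in exon 9 of either transcript, with the differing bases in capitals.
Pkm-201: tCgaGgaActCCGCcgCCTGGcGCCCATTA
Pkm-202: tTgaAgaGctTGTGcgAGCCTcCAGTCACT
The coding sequences differ at 64 positions, and 184 coding windows of each are not found in the other. Pkm-202 had 413 CPM in standard and 363 CPM in AHARIBO RIBO-seq, close to the 478 and 417 CPM of Pkm-201. The excess of Pkm-201 over Pkm-202 was 60.3, 62.4 and 70.1 CPM in standard and 50.1 and 58.3 CPM in AHARIBO RIBO-seq. Both AHARIBO libraries lay below the standard ones in this excess, as they did for Pkm-201 and Pkm-202 themselves. That arrangement was found in 16.5% of all transcripts tested, and a shift between the forms was not tested. The excess includes footprints from all 575 windows of Pkm-201 absent from Pkm-202, leaders and trailers among them. The table does not separate reads on the exons themselves, so it gives no ratio of the forms.

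AHA enters a peptide at methionine, so the enzymes were compared by the methionines they encode. The main transcript of Aldoa, Aldoa-201, encodes 4 in 364 residues, the lowest proportion (1.10%), and Hk2 encodes 38 in 917 residues, the highest (4.14%). The first methionine after the start is residue 6 in Hk2 and residue 11 in Pfkl, but residue 165 in Aldoa. The initiator methionine, at which AHA can also enter and which some proteins lose, was not counted in the shares that follow, so they are no measure of all the positions open to AHA. The ribosomal exit tunnel holds roughly the last 40 residues of a growing chain. Counted from 40 residues past that first internal methionine, 44.0% of the Aldoa coding sequence remained, against 76.0% for Gapdh and 95.1% for Hk2, the lowest and highest of the others. Aldoa-202, at 228 CPM over the 5 libraries beside 231 CPM for Aldoa-201, encodes 6 methionines in 418 residues, with the first internal one at residue 13 and 87.6% remaining. For Pkm and Pfkl, 88.5% and 93.6% remained. The log2 fold changes of Aldoa (-0.19), Pkm (-0.20) and Pfkl (-0.19) were not called, and the part of methionines in them was not tested. Across the 10 enzymes, Pearson's r between this share and the log2 fold change was 0.355 and Spearman's rho 0.442, or 0.18 and 0.35 without Aldoa, with Aldoa-201 standing for that gene. These values share libraries and describe these 10 genes alone.

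Among the remaining genes of the pathway and its surroundings, 1 was called between the methods. Of 23 other glycolytic isoenzymes and steps, 16 passed the filter and 0 were called, with a median log2 fold change of -0.066. The highest, Eno1b, a copy of the enolase gene Eno1, had 405 CPM in standard and 357 CPM in AHARIBO RIBO-seq. Eno1 itself had 399 and 352 CPM, with 3706 reads on each in AHARIBO replicate 1, and reads on the copy and on the gene cannot be told apart from the table. All 11 regulators of glycolytic flux passed and 0 were called, with Pdk1, a kinase that inhibits pyruvate dehydrogenase, at 47.4 and 50.4 CPM. Of 8 transporters of glucose and lactate, 6 passed and 0 were called, and the glucose transporter Slc2a3 was the highest, at 254 and 248 CPM. All 8 pentose phosphate genes passed and 0 were called, with a median log2 fold change of -0.11 and the transketolase Tkt highest at 205 and 192 CPM. Of 6 gluconeogenesis genes, 3 passed and 0 were called, and Pck2, the mitochondrial PEP carboxykinase, was the highest at 50.4 and 47.7 CPM. Log2 fold changes lay below 0 for 11 of 16 other isoenzymes and steps, 6 of 11 regulators and 4 of 6 transporters. They did so for 8 of 8 pentose phosphate genes, 3 of 3 gluconeogenesis genes and 4 of 8 genes of pyruvate entry, described next. The share over all transcripts tested was 49.7%.

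Of 8 genes for the entry of pyruvate into mitochondria, in which Pdhb was highest at 88.6 and 83.6 CPM, 1 was called. This was Dld, the dihydrolipoamide dehydrogenase subunit that pyruvate dehydrogenase shares with other complexes. It rose from 22.3 ± 1.84 CPM in standard to 28.2 ± 1.85 CPM in AHARIBO RIBO-seq (log2 fold change 0.33, adjusted p = 0.039, edgeR), beside 2.27% of all transcripts called higher. It was not called without standard replicate 1, standard replicate 3 or AHARIBO replicate 1, with adjusted p from 0.13 to 0.45 (edgeR), not with duplicate reads kept (adjusted p = 0.092, edgeR) and not by DESeq2 (adjusted p = 0.24).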

How the data were processed

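Footprints of mESCs were analysed in 5 libraries. The authors deposited unnormalized counts of reads per transcript, in a version without duplicate reads, used here, and a version that keeps them. The other deposited column is transcript length in nt. Per the methods and the submitters' processing notes, reads were trimmed (Trimmomatic 0.36), cleared of rRNA and tRNA and mapped by STAR, with its defaults, on Gencode M17 transcripts, and antisense reads were dropped. The treatment of reads that fit several transcripts is not given in the sources used here.

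TMM factors from the whole table, before the filter, were computed in edgeR 4.0.16 (R 4.3.3), and the quasi-likelihood test compared the methods, with Benjamini-Hochberg adjustment over all transcripts kept. SE values derive from the fold change and F statistic. DESeq2 1.42.0, other normalizations and filters, a replicate block and leaving out each library were alternatives. On simulated counts of this comparison (66972 transcripts, 200 changed), edgeR recovered 99% of 2-fold and 100% of 4-fold changes, with 12 unchanged transcripts called. DESeq2 recovered 78% and 100%, with 0 called. The changed transcripts were drawn from those with higher counts, and no change under 2-fold was simulated. These shares therefore do not apply to differences as small as those of the enzymes, or to low counts. Annotation and sequences came from Gencode M21 (GRCm38), where 134952 transcripts matched by identifier.

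The members and lists were chosen with earlier results of these data known. Named are all members, called genes, the highest gene of each list, and per member the highest pseudogene sharing 30 nt windows. Gm5537, Gm10359, Gm12671, the member transcripts other than the main ones and the markers Nanog, Dcn, Thy1 and Col1a1 were singled out with their values in view. Unused columns of per-sample values numbered 0.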

Additional observations from a re-analysis of the deposited data

How the results depend on the processing

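Under 14 alternatives for each enzyme, 134 of 140 fold changes kept their sign and their side of the threshold. With duplicate reads kept, Tpi1 (log2 fold change 0.069) and Ldha (0.062) changed sign, while Pkm moved to -0.042, Aldoa to -0.056, Gpi1 to -0.0028, Hk2 to -0.027, Pfkp to -0.024 and Pgk1 to 0.23. With a library left out, the range was -0.25 to 0.033 for Tpi1, -0.14 to 0.0050 for Ldha and -0.023 to 0.082 for Pgk1, of which the first 2 turned without AHARIBO replicate 1 and Pgk1 without AHARIBO replicate 2. Without AHARIBO replicate 1, Pkm moved to -0.089, Pfkl to -0.11, Pfkp to -0.034 and Hk2 to -0.021. With a library left out, Gpi1 ranged from -0.15 without standard replicate 1 to -0.052 without standard replicate 2. The number of enzymes called was 0 to 1 over the libraries left out, the 1 being Pkm without AHARIBO replicate 2, and 0 under every other alternative run. The median over the enzymes ranged from -0.19, without AHARIBO replicate 2, to -0.055 over the libraries left out, and was -0.025 with duplicate reads kept. The cause was not tested.

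Over the whole table, 3021 transcripts were called, and 308 by DESeq2. With the highest transcript of each gene, 959 of 23323 were called, and with transcripts summed per gene, 147 of 21313. Leaving out a library gave 510 (AHARIBO replicate 1) to 3829 (AHARIBO replicate 2), with 1173 without standard replicate 1 and 1815 without standard replicate 3. A fit with 1 AHARIBO library assumes that it varies like the standard ones. With the replicate number as a block, 1792 transcripts and 0 of the enzymes were called. With the block, edgeR called none of Klf4, Sox2, Dld, Aldoa-211, Pkm-208, Gm6992 and Gm15066 (adjusted p = 0.088 to 0.32). The paper describes the standard RIBO-seq as done on the input, but does not say which libraries share a lysate. Deviations of same-numbered libraries correlated at 0.035 and -0.094. With 2 AHARIBO libraries these deviations mirror each other, so the correlations cannot settle whether the libraries are paired.

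In standard RIBO-seq, the order by level changed for 7 enzymes when transcripts were summed per gene. Chosen after the data were seen, keeping duplicates moved 6, dividing by windows at no more than 10 places moved 8, and dividing by such coding windows moved 2 of the 9 enzymes that have them. The difference in the share of all reads was -0.0098 percentage points, and -0.015 to -0.0043 with a library left out. Over other denominators it was -0.018 (protein-coding transcripts) and -0.022 (the highest transcript of each gene). With 50 nt windows, 6 enzymes had at least 10% of their windows in another gene, and with 30 nt windows 7. The 7 Gapdh-related pseudogene transcripts rested on 6 to 39 reads per library, Gapdh on 145 to 211 and Aldoa-214 on 4 to 13.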
